A study of Drosophila melanogaster with 15 samples.

Results

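The 9 genes described here were grouped under juvenile hormone metabolism and response: jhamt, Jhe, Jhedup, Jheh1, Jheh2, Jheh3, Met, gce and Kr-h1. Whether Jhedup takes part in breaking down the hormone was not examined. The 9 genes were taken by symbol from the 15682 gene rows of the count files, and all 9 were found and passed the filter on low counts. Juvenile hormone is a lipid hormone of insects that is made in the corpus allatum, an endocrine gland close to the brain, and that acts on development, reproduction and metabolism. jhamt encodes the methyltransferase of a late step of its synthesis. Esterases (Jhe) and epoxide hydrolases (the Jheh genes) break the hormone down. Met and gce encode bHLH-PAS proteins that bind the hormone, and Kr-h1 encodes a zinc finger factor that is induced by the bound receptor.

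The data are RNA-seq counts from 15 Drosophila melanogaster libraries of stranded total RNA, labelled as dissected skeletal muscle in a w1118 strain background. There were 5 groups of 3 libraries: dpp RNAi construct 1, dpp RNAi construct 2, control RNAi, dpp overexpression and control. dpp encodes Decapentaplegic, a secreted BMP ligand, and RNAi lowers a transcript through matching double-stranded RNA. The title of the study concerns Dpp released from muscle, feeding and dopamine synthesis in the brain. The promoter that drove the transgenes, the sex and age of the flies, and whether animals were pooled are not given in the sources used here. All 15 libraries, the controls included, carry RNAi in the treatment field. Separate cultures or animals behind the replicates are not named either, and the p-values therefore measure the spread between these libraries only.

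Gene counts per library ran from 11244899 to 56290808. The dpp RNAi libraries were the shallowest, with at most 22400963 counts, and the other groups had at least 25537295. In CPM, which are counts per 1000000 after scaling by TMM factors, the targeted gene dpp reached 51.7 to 77.2 in the overexpression libraries and 31.9 to 35.1 in control. It lay at 29.3 to 35.0 in control RNAi, against 30.4 to 33.4 for construct 1 and 29.4 to 33.7 for construct 2. A lower dpp level was therefore not detected in the libraries labelled dpp RNAi (log2 fold changes of 0.02 and -0.01 against control RNAi, adjusted p = 0.942 and 0.951), and directions given for them are relative to the group named. Library codes share a leading number block within both dpp RNAi groups, have another in control RNAi and a further one in dpp overexpression and control. The labels do not say what the block marks, and across blocks it cannot be told apart from the group. The 9 muscle markers summed to 3292 to 9114 CPM per library and the 5 photoreceptor markers to 39793 to 52219 CPM, so RNA of eye genes was present in every library labelled skeletal muscle. In bulk libraries, fewer cells of a type and less RNA per cell cannot be told apart.

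Compared per kilobase of exon, which is the scale on which genes can be set side by side, the epoxide hydrolase genes had the highest levels of the 9 in the control libraries. Jheh2 stood at 110 CPM per kb, Jheh1 at 62.5 and Jheh3 at 48.2. Kr-h1 (24.6), Jhedup (24.0) and gce (19.7) formed a middle range. Met (8.14), Jhe (7.58) and jhamt (5.50) were lowest. Exon lengths were those of the dm6 annotation, whereas the counts were made on dm3, so these levels are approximate. In that annotation the same antisense RNA (CR46485) overlaps exons of each Jheh gene, and other antisense RNAs overlap exons of gce. CG45075 shares exons with Kr-h1 on the same strand. The counts of these genes may therefore hold reads of the overlapping RNAs, and reads of CR46485 could enter the count of each Jheh gene. The overlap covered 4168 of 5306 exonic bases of Kr-h1, all 1486 of Jheh1, 1765 of 1926 of Jheh2 and 780 of 1576 of Jheh3.

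With dpp overexpression, jhamt, Jhedup, Jheh1, Jheh2 and Jheh3 were all lower than in control, in a comparison where 29.6% of all tested genes were called and 16.2% were called lower, and Jhe, Met, gce and Kr-h1 were not called. Between control RNAi and control, Jhedup, Jheh1 and gce were higher and Jhe and Jheh3 were lower, where 45.2% of all tested genes were called. Against control RNAi, construct 1 was higher in Jheh3 and lower in Jhedup and Jheh1, where 25.7% of all tested genes were called. Construct 2 was higher in Jheh2, Jheh3 and Met and lower in gce and Kr-h1, where 41.3% were called. These last comparisons share the control RNAi libraries.

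**Figure D1:**
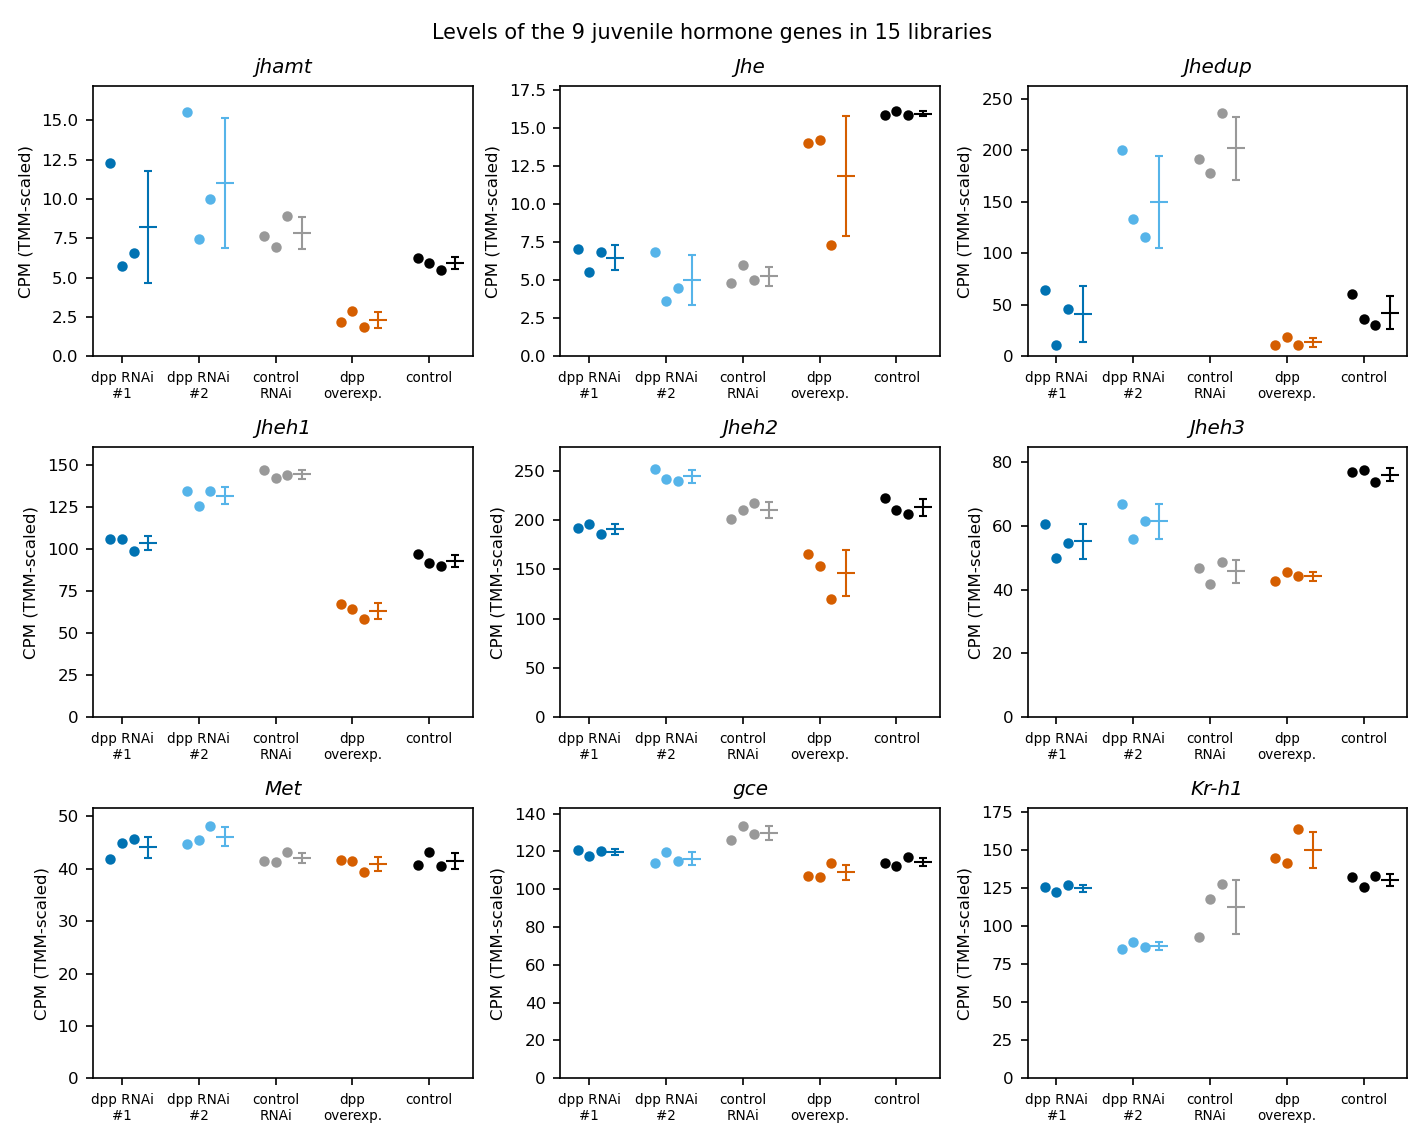
Each panel plots 1 gene, with CPM (counts per 1000000 after TMM scaling, linear axis from 0) for the 3 libraries of each group as points in the order of their label numbers, and the mean with its SD as a bar beside them. jhamt was lowest with dpp overexpression, Jhe was highest in control, Jhedup spread from 10.6 to 236 CPM, and Met stayed between 39.3 and 48.2 CPM in all 15 libraries.

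jhamt was at 6.28, 5.92 and 5.51 CPM in the 3 control libraries and at 2.17, 2.87 and 1.84 CPM with dpp overexpression. The groups did not overlap, and jhamt was 2.53-fold lower with overexpression (log2 fold change -1.34 ± 0.29, SE; adjusted p = 0.00355). In control RNAi it was at 7.65, 6.95 and 8.94 CPM. With construct 1 it was at 12.3, 5.77 and 6.57 CPM, and with construct 2 at 15.5, 7.47 and 10.01 CPM. Library 1 was the highest of its group under both constructs, and both groups overlapped with control RNAi. The test did not call jhamt with either construct against control RNAi (0.11, 95% confidence interval -0.52 to 0.73, and 0.48, interval -0.11 to 1.07). Without library 1 of construct 1, the first of these values turned to -0.35 (adjusted p = 0.416). Against control, jhamt was higher with construct 2 (0.89 ± 0.27, adjusted p = 0.0222), a call that was lost without library 1 of construct 2 (0.57, adjusted p = 0.118), library 2 of control (0.89, adjusted p = 0.0598) or library 3 of control (0.84, adjusted p = 0.0708). In order of mean level the groups ran construct 2, construct 1, control RNAi, control and dpp overexpression. Of the neighbours in that order, control and dpp overexpression differed past the test, and the other pairs were not called. Control RNAi against control (0.41, adjusted p = 0.228), whose libraries did not overlap, was called when only these groups were fitted (0.44, adjusted p = 0.00314).

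Jhe, the juvenile hormone esterase gene, was at 15.8, 16.1 and 15.9 CPM in control. It was at 4.81, 5.97 and 4.996 CPM in control RNAi, at 7.06, 5.53 and 6.84 CPM with construct 1, and at 6.87, 3.65 and 4.50 CPM with construct 2. All 9 libraries of these groups were below all 3 control libraries. Against control, the log2 fold changes were -1.60 ± 0.23 for control RNAi (adjusted p = 0.000103), -1.29 ± 0.25 for construct 1 (adjusted p = 0.00211) and -1.68 ± 0.24 for construct 2 (adjusted p = 0.000196). The 3 comparisons share the control libraries. Against control RNAi, Jhe was not called with construct 1 (0.31, interval -0.27 to 0.89) or construct 2 (-0.08, interval -0.66 to 0.50). The sign of the construct 2 value changed without library 2 of construct 2 (0.09, adjusted p = 0.836) or library 2 of control RNAi (0.02, adjusted p = 0.972). With dpp overexpression Jhe was at 14.0, 14.2 and 7.28 CPM, so that library 3, the shallowest of the group, stood below the other 2. The level did not pass the test against control (-0.40 ± 0.21, adjusted p = 0.17), although the groups did not overlap. Control and dpp overexpression stood first and second in order of level, and the step from dpp overexpression down to construct 1 was called (0.89, adjusted p = 0.0119). The steps from construct 1 to control RNAi and from there to construct 2 were not.

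Jhedup lies next to Jhe in the dm6 annotation and encodes a related esterase that is known from the antenna of Drosophila. It spread more than the other 8 members, from 10.6 to 236 CPM over the 15 libraries, a ratio of 22.2. It was at 192, 178 and 236 CPM in control RNAi, at 200, 134 and 116 CPM with construct 2, and at 64.9, 11.5 and 46.3 CPM with construct 1. It was at 60.6, 36.0 and 30.1 CPM in control and at 10.6, 18.7 and 11.4 CPM with dpp overexpression. Control RNAi and construct 2 lay above all other libraries, and library 2 of construct 1 was as low as the overexpression libraries. Within construct 1 the coefficient of variation was 66.4%, against a median of 7.16% over all tested genes.

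Jhedup was 4.86-fold lower with construct 1 than in control RNAi (-2.28 ± 0.50, adjusted p = 0.00739). This value ranged from -2.83 to -1.85 over the fits that left out 1 library, all of them called, and it was not called when only these 2 groups were fitted (-2.27, adjusted p = 0.0692). With construct 2 it was not called (-0.43, interval -1.45 to 0.59). It was lower with construct 1 than with construct 2 (-1.85 ± 0.50, adjusted p = 0.0382). That call was lost without library 2 (-1.42, adjusted p = 0.0555) or 3 (-1.93, adjusted p = 0.097) of construct 1, and without library 1 (-1.59, adjusted p = 0.133), 2 (-1.94, adjusted p = 0.0583) or 3 (-2.01, adjusted p = 0.0526) of construct 2. It was also lost when only these groups were fitted (-1.85, adjusted p = 0.179) and without the filter on low counts (-1.86, adjusted p = 0.0524). With dpp overexpression Jhedup was lower than in control (-1.63 ± 0.50, adjusted p = 0.0321). That call was lost without library 1 (-1.46, adjusted p = 0.116) or 3 (-1.54, adjusted p = 0.0748) of overexpression, and without library 1 (-1.27, adjusted p = 0.124) or 2 (-1.73, adjusted p = 0.0552) of control. Control RNAi was higher than control (2.25 ± 0.48, adjusted p = 0.00326), and so was construct 2 (1.82 ± 0.48, adjusted p = 0.0133). The construct 2 call was lost without its library 1 (1.56, adjusted p = 0.0501), or without library 2 (1.72, adjusted p = 0.0526) or 3 (1.63, adjusted p = 0.0573) of control. Construct 1 was not called against control (-0.03, interval -1.13 to 1.07), and that sign changed without its library 2 (0.40, adjusted p = 0.501) or library 1 of control (0.32, adjusted p = 0.733).

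Markers of the antenna moved with Jhedup. A list of 9 antennal genes (Orco, Obp69a, Obp83a, Obp83b, lush, Obp84a, Obp28a, a5 and a10), chosen after the Jhedup values were seen, had every marker above 0 in every group. Its summed level was lowest with dpp overexpression, at 61.2 to 97.6 CPM, followed by 179.5 to 292 CPM in control and 92.9 to 436 CPM with construct 1. Construct 2 reached 514 to 960 CPM and control RNAi 1099.8 to 1286 CPM. All 9 markers were lower with construct 1 than in control RNAi, 1 of 9 with construct 2 (0 by DESeq2), and 7 of 9 were lower with dpp overexpression than in control (DESeq2 called 8). In these comparisons 12.6%, 20.3% and 16.2% of all tested genes were called lower. All 9 markers were higher in control RNAi and with construct 2 than in control (DESeq2 called 9 and 8). There 20.9% and 18.3% of all tested genes were called higher. With construct 1 against control no marker was called by edgeR or DESeq2 or had an unadjusted p under 0.05. The part of the antenna in the Jhedup differences was not tested beyond these values. The antennal sum varied by a ratio of 21.01 over the 15 libraries, close to the 22.2 of Jhedup, while Jhedup as a share of that sum varied by a ratio of 1.83. The share was 20.8 to 22.6% with construct 2 and 16.8 to 20.7% in control. Control RNAi had 15.9 to 18.4%, the overexpression libraries 15.4 to 19.2% and construct 1 12.3 to 14.9%. Construct 1 thus lay below and construct 2 above all other libraries on this share. The neighbouring gene Jhe, as a share of the same sum, varied from 0.388 to 22.9%, a ratio of 58.9. Jhe correlated with Jhedup at -0.55, so its share of a sum that rose with Jhedup had to range widely. That ratio is therefore no contrast to the Jhedup share. Obp83a of the antennal list was among the tested genes most correlated with Jhedup. The list was chosen after the Jhedup values were seen, so neither this correlation nor the close ratios are separate evidence.

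**Figure D2:**
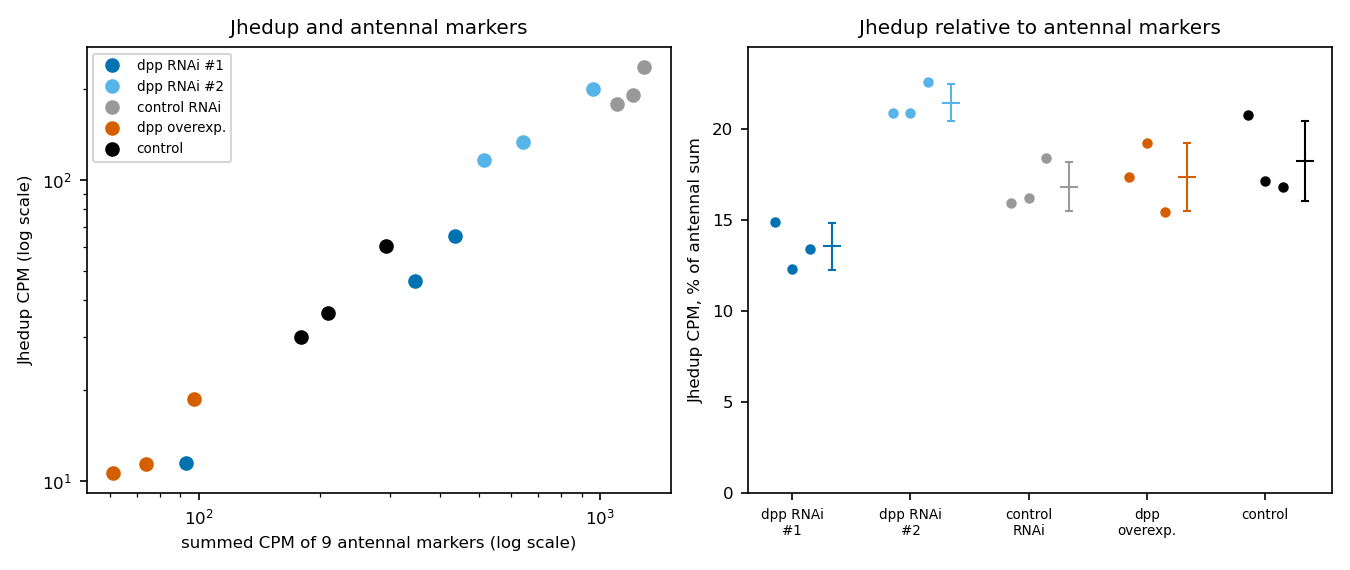
The left panel plots Jhedup CPM against the summed CPM of 9 antennal markers, both on log axes, with 1 point per library. The right panel plots Jhedup as a percentage of that sum (linear axis from 0), with points for libraries and a bar for the mean and SD. Levels on both axes of the left panel differ by more than 20-fold between libraries, and the percentages lie between 12.3 and 22.6.

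The hydrolase genes Jheh1, Jheh2 and Jheh3 are neighbours in that order in the dm6 annotation, and each encodes an enzyme that opens the epoxide ring of the hormone. With dpp overexpression all 3 were lower than in control, and none of the overexpression libraries overlapped with control. The same antisense RNA overlaps all 3, so their counts may not be fully separate measures. Jheh1 went from 97.1, 91.6 and 89.9 CPM in control to 67.6, 64.2 and 58.3 CPM (-0.55 ± 0.05, adjusted p = 1.31e-06). Jheh2 went from 222, 210 and 206 CPM to 166, 153 and 120 CPM (-0.54 ± 0.08, adjusted p = 0.000137), with overexpression library 3 the lowest. Jheh3 went from 77.0, 77.4 and 73.6 CPM to 42.8, 45.6 and 44.2 CPM (-0.78 ± 0.07, adjusted p = 7.25e-07). Together the 3 genes summed to 381 ± 13.4 CPM (SD, n = 3) in control and 254 ± 27.8 CPM with overexpression. Leaving out any 1 library of these groups kept all 3 calls. In the same comparison 13.4% of all tested genes were called higher and 16.2% lower. Of 10 fat body markers there, 3 were higher and 2 lower, with sums of 7313 to 8401 CPM in control and 7383 to 8132 CPM with overexpression. Of 6 cuticle and epidermis markers 2 were lower, with sums of 363 to 378 and 117 to 127 CPM. Of 9 antennal markers 7 were lower and 2 not called, with sums of 179.5 to 292 and 61.2 to 97.6 CPM. Of 5 glial markers 2 were lower and 3 not called. The part of these tissues in the fall of the hydrolase genes was not tested.

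Between the 2 control groups the hydrolase genes moved in different directions. Jheh1 was at 147, 142 and 144 CPM in control RNAi, above all control libraries (0.64 ± 0.05, adjusted p = 3.3e-07). Jheh3 was at 46.9, 41.8 and 48.6 CPM, below all of them (-0.73 ± 0.07, adjusted p = 1.79e-06). Jheh2 was at 201, 210 and 217 CPM and was not called (-0.02, interval -0.20 to 0.16), and its sign changed with RLE size factors or in DESeq2 (0.01 in both). The ratio of Jheh1 to Jheh2 was 0.435 to 0.438 in control, 0.408 to 0.485 with dpp overexpression, 0.520 to 0.563 with construct 2, 0.533 to 0.552 with construct 1 and 0.661 to 0.730 in control RNAi. The ratio of Jheh3 to Jheh2 ran from 0.347 to 0.368 in control and from 0.199 to 0.233 in control RNAi. A ratio within a library shows unequal change of the genes, not which of them changed.

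Under the dpp RNAi labels Jheh3 was at 60.7, 49.99 and 54.7 CPM with construct 1 and at 66.9, 55.8 and 61.5 CPM with construct 2, all above control RNAi. It was higher than in control RNAi with construct 1 (0.27 ± 0.08, adjusted p = 0.0162) and construct 2 (0.42 ± 0.08, adjusted p = 0.000417). The construct 1 call was lost without its library 1 (0.19, adjusted p = 0.112) or without library 2 of control RNAi (0.21, adjusted p = 0.0832). Against control, both constructs were lower in Jheh3 (-0.46, adjusted p = 0.000395, and -0.31, adjusted p = 0.00428), so the direction depended on which control was used. In order of level Jheh3 ran control, construct 2, construct 1, control RNAi and dpp overexpression, where the steps from construct 2 to construct 1 and from control RNAi to dpp overexpression were not called.

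Jheh1 was at 106, 106 and 98.9 CPM with construct 1 and at 134, 126 and 134 CPM with construct 2. Construct 1 was lower than control RNAi (-0.48 ± 0.06, adjusted p = 4.47e-05) and lower than construct 2 (-0.34 ± 0.06, adjusted p = 0.00103). Construct 2 against control RNAi did not pass (-0.13 ± 0.05, adjusted p = 0.0598), although those libraries did not overlap. It was called with RLE size factors (-0.15, adjusted p = 0.0431) and in DESeq2 (-0.15, adjusted p = 0.0324). Against control Jheh1 was higher with construct 2 (0.50, adjusted p = 5.51e-06) and with construct 1 (0.16, adjusted p = 0.0458). The construct 1 call was lost without library 1 (0.14, adjusted p = 0.142) or 2 (0.14, adjusted p = 0.126) of construct 1, or library 2 (0.15, adjusted p = 0.135) or 3 (0.14, adjusted p = 0.156) of control, without TMM factors (0.09, adjusted p = 0.28) and without the filter on low counts (0.14, adjusted p = 0.107). Jheh2 was at 192, 196 and 186 CPM with construct 1 and at 252, 242 and 239 CPM with construct 2. It was lower with construct 1 than with construct 2 (-0.35 ± 0.08, adjusted p = 0.0129), a call that was lost without library 3 of construct 1 (-0.33, adjusted p = 0.061) or library 1 of construct 2 (-0.33, adjusted p = 0.0614). Against control RNAi it was not called with construct 1 (-0.13, interval -0.31 to 0.05), although the libraries did not overlap, and was higher with construct 2 (0.22 ± 0.08, adjusted p = 0.0453), a call lost whichever 1 of the 6 libraries was left out (0.19 to 0.25, adjusted p = 0.0606 to 0.133). It was also lost in DESeq2 (adjusted p = 0.0579), with RLE size factors (adjusted p = 0.0613) and without the filter on low counts (adjusted p = 0.0907). Against control Jheh2 was not called with construct 1 (-0.15, interval -0.33 to 0.03) or construct 2 (0.20, interval 0.02 to 0.38, adjusted p = 0.0732). Both were called when only the groups compared were fitted (-0.14, adjusted p = 0.0477, and 0.21, adjusted p = 0.00601). In order of level it ran construct 2, control, control RNAi, construct 1 and dpp overexpression, and the last step was called (adjusted p = 0.00187).

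**Figure D3:**
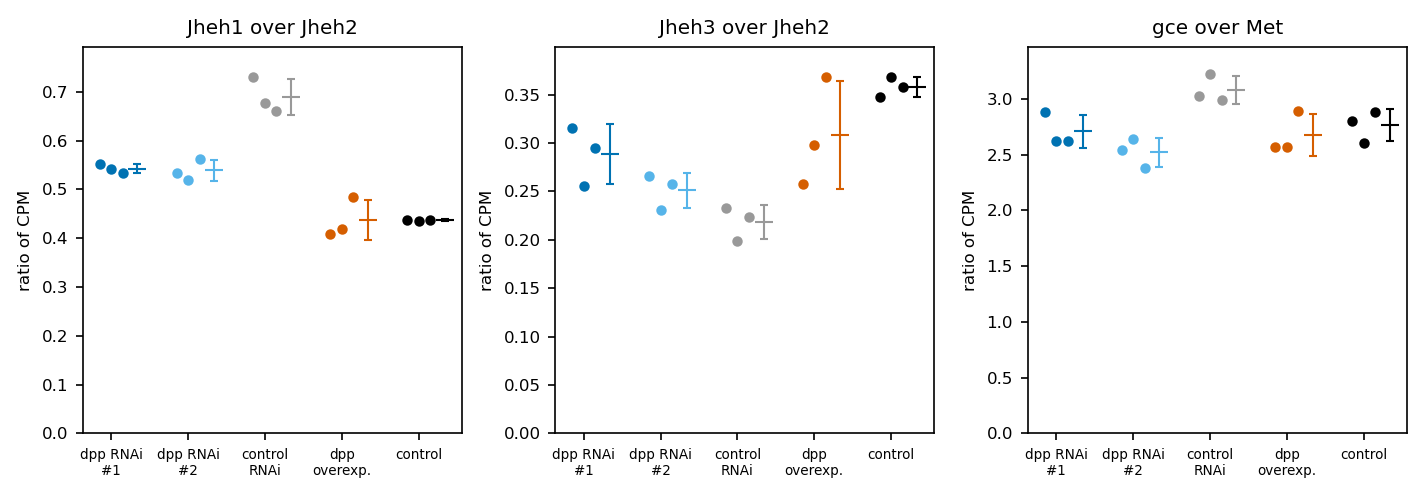
Each panel plots a ratio of CPM between 2 related genes (Jheh1 to Jheh2, Jheh3 to Jheh2, gce to Met) on a linear axis from 0, with a point for each library and a bar for the mean and SD of each group. The ratio of Jheh1 to Jheh2 was highest in control RNAi (0.661 to 0.730), where that of Jheh3 to Jheh2 was lowest on average.

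Met, the first of the receptor genes, was at 40.6, 43.2 and 40.5 CPM in control and at 41.7, 41.5 and 39.3 CPM with dpp overexpression (-0.02, interval -0.12 to 0.08). It was at 41.6, 41.3 and 43.2 CPM in control RNAi, at 41.9, 44.9 and 45.6 CPM with construct 1 and at 44.7, 45.4 and 48.2 CPM with construct 2. Met was higher with construct 2 than in control RNAi (0.13 ± 0.05, adjusted p = 0.0425). That call was lost without library 2 (0.14, adjusted p = 0.0706) or 3 (0.10, adjusted p = 0.173) of construct 2, or library 1 (0.13, adjusted p = 0.0989) or 2 (0.12, adjusted p = 0.117) of control RNAi. It was also lost in DESeq2 (0.12, adjusted p = 0.0774), with RLE size factors (adjusted p = 0.0661), without the filter on low counts (adjusted p = 0.141) and with only these groups fitted (adjusted p = 0.066). Met was also higher with construct 2 than in control (0.16 ± 0.05, adjusted p = 0.0238), a call lost without library 3 of construct 2 (0.12, adjusted p = 0.113) or library 1 (0.14, adjusted p = 0.0816) or 3 (0.14, adjusted p = 0.0912) of control, without TMM factors (0.07, adjusted p = 0.309) and without the filter on low counts (0.14, adjusted p = 0.0548). With construct 1 it was not called against either (0.07, interval -0.04 to 0.18, and 0.09, interval -0.02 to 0.20). None of the steps between neighbours in the order of Met levels was called.

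gce, the paralog of Met, was at 126, 133 and 129 CPM in control RNAi, above the other 12 libraries. It was at 121, 118 and 120 CPM with construct 1, at 114, 119.9 and 114.7 CPM with construct 2, at 107, 107 and 114 CPM with dpp overexpression, and at 114, 112 and 117 CPM in control. Control RNAi was higher than control (0.18 ± 0.04, adjusted p = 0.00269; 0.08 and adjusted p = 0.0868 without TMM factors), and construct 2 was lower than control RNAi (-0.16 ± 0.04, adjusted p = 0.00799). Construct 1 against control RNAi was not called (-0.12 ± 0.04, adjusted p = 0.0575), and was called without library 1 of control RNAi (-0.14, adjusted p = 0.0487), with RLE size factors (-0.13, adjusted p = 0.0396), without the filter on low counts (-0.14, adjusted p = 0.0367) and in DESeq2 (-0.13, adjusted p = 0.0184). None of the steps between neighbours in the order of gce levels was called. With dpp overexpression gce was not called (-0.07, interval -0.16 to 0.02), nor was it with construct 1 (0.06, interval -0.03 to 0.15) or construct 2 (0.02, interval -0.07 to 0.11) against control. The ratio of gce to Met lay between 2.38 and 3.23 in all 15 libraries.

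Kr-h1, the target gene, whose counts may hold reads of CG45075 over most of its exonic length, separated the 2 constructs. It was at 126, 122 and 127 CPM with construct 1 and at 85.1, 89.9 and 86.2 CPM with construct 2, with no overlap (0.52 ± 0.09, adjusted p = 0.00158). Control RNAi was at 92.7, 118 and 128 CPM, a spread that reached from near the construct 2 libraries to above the construct 1 libraries. Construct 2 was lower than control RNAi (-0.37 ± 0.09, adjusted p = 0.00358) and than control (-0.58 ± 0.09, adjusted p = 0.00013). Construct 1 was not called against control RNAi (0.15, interval -0.04 to 0.34) or control (-0.06, interval -0.25 to 0.13). With dpp overexpression Kr-h1 was at 145, 142 and 164 CPM, above the 132, 126 and 133 CPM of control, but did not pass (0.20 ± 0.09, adjusted p = 0.0928). It was called when only these groups were fitted (0.22, adjusted p = 0.0273). The order of levels was dpp overexpression, control, construct 1, control RNAi and construct 2, and of these steps the last was called. Control RNAi against control was not called (-0.21 ± 0.09, adjusted p = 0.0574), but was called without library 3 of control RNAi (-0.31, adjusted p = 0.00956) and without TMM factors (-0.31, adjusted p = 0.00493).

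**Figure D4:**
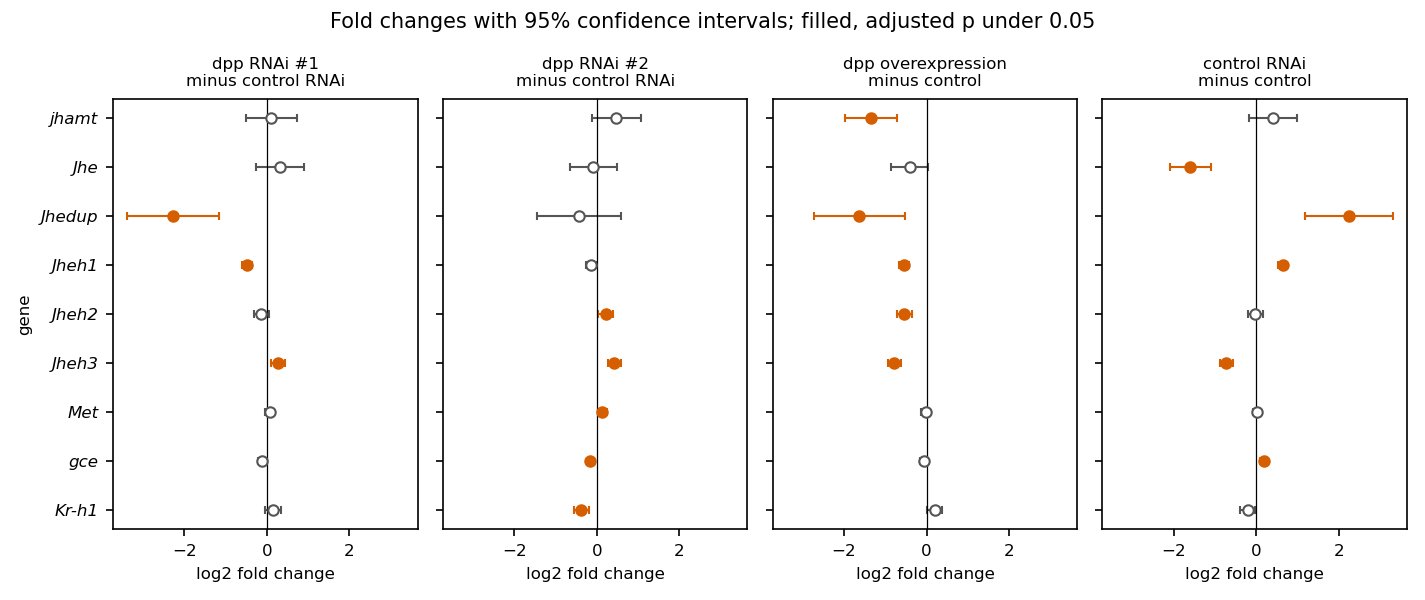
Each panel plots the log2 fold changes (x axis) of the 9 genes (y axis) for 1 comparison, with 95% confidence intervals from the fit as bars, and filled points for an adjusted p under 0.05. With dpp overexpression the called genes lie left of 0, while between control RNAi and control Jhe and Jheh3 lie left, and Jhedup, Jheh1 and gce lie right.

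Counted over the members, the comparison of construct 1 with control RNAi called 1 gene higher and 2 lower of 9, where 25.7% of all tested genes were called, 13.1% higher and 12.6% lower. Libraries did not overlap for 5 of 9 members, against 41.9% of all genes. For construct 2 against control RNAi, 3 were higher and 2 lower, where 41.3% of all genes were called, 21% higher and 20.3% lower, and 6 of 9 did not overlap, against 53.5%. For dpp overexpression against control 5 of 9 were lower, where 29.6% of all genes were called, 13.4% higher and 16.2% lower, and 7 of 9 did not overlap, against 45.7%. The median log2 fold change of the 9 genes was -0.54 there, which is the value of Jheh2, beside -0.01 over all tested genes. In the other comparisons whose members are counted here, it lay between -0.15 (between the constructs) and 0.16 (construct 2 against control). Between the constructs 1 was higher and 3 were lower, where 12% of all genes were called, 5.67% higher and 6.36% lower, and 4 of 9 did not overlap, against 31.5%. Between control RNAi and control 3 were higher and 2 lower, where 45.2% of all genes were called, 20.9% higher and 24.3% lower, and 6 of 9 did not overlap, against 62.2%. Against control, construct 1 had 1 higher and 2 lower, where 24.6% of all genes were called, 12.8% higher and 11.7% lower, and 5 of 9 did not overlap, against 44.4%. Construct 2 had 4 higher and 3 lower, where 36.2% were called, 18.3% higher and 17.9% lower, and 8 of 9 did not overlap, against 53.9%. The order of levels also drew on dpp overexpression against control RNAi and against construct 1, in which 54.4% and 42.2% of all genes were called. Without TMM factors the median of all genes moved from -0.04 to -0.13 between control RNAi and control, and the share of higher calls there from 46.3 to 27.7%. It moved from 52.2 to 28.6% for construct 1 and from 50.5 to 29.4% for construct 2 against control. In the comparisons of control RNAi with control and of construct 2 with either control, much of the transcriptome differed, so calls of single members there are common among genes.

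Marker lists moved with several of these comparisons. Of 9 muscle markers, 8 were higher with each construct than in control RNAi. There 13.1% (construct 1) and 21% (construct 2) of all tested genes were called higher. All 9 muscle markers were lower in control RNAi (3292 to 3411 CPM in sum) than in control (6646 to 7449 CPM), where 24.3% of all tested genes were called lower. All 4 neuronal and all 5 glial markers found in the files were higher in control RNAi than in control, as were 7 of 10 fat body markers. In that comparison 20.9% of all tested genes were called higher. Against control, 9 of 10 fat body markers were higher with each construct, where 12.8% (construct 1) and 18.3% (construct 2) of all tested genes were called higher. Of the cuticle and epidermis markers 5 of 6 were higher with each construct than in control RNAi, where Lcp2 was at 0. The summed level of the 5 glial markers was 1915 to 2059 CPM with construct 1 and 2415 to 2492 CPM with construct 2. Of these markers 3 of 5 were lower in construct 1, where 6.36% of all tested genes were called lower. The part of these tissues in the differences of the juvenile hormone genes was not tested.

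Of 7 genes for the mevalonate pathway and farnesyl diphosphate, which feed the synthesis of the hormone, 6 were tested. With construct 1 against control RNAi none was called by edgeR, 2 had an unadjusted p under 0.05, and DESeq2 called 0. With construct 2, CG8239 (0.34 ± 0.12, adjusted p = 0.0348) and CG5919 (0.20 ± 0.08, adjusted p = 0.0468) were higher, with a list median of -0.02, and DESeq2 called neither. With dpp overexpression CG5919 was higher (means of 23.3 against 20.3 CPM, 0.20 ± 0.07, adjusted p = 0.04) and 5 were not called. Hmgs, the hydroxymethylglutaryl-CoA synthase gene, was higher with construct 1 than with construct 2 (0.16 ± 0.05, adjusted p = 0.0492). In control RNAi Hmgs (-0.20) and CG5919 (-0.28) were lower than in control, with a list median of -0.18. Against control none was called with construct 1 by edgeR or DESeq2 (1 at an unadjusted p under 0.05), and Hmgs was lower with construct 2 (-0.27, adjusted p = 0.000538). The medians of all tested genes lay between -0.04 and 0.01 in the 7 comparisons. Of all tested genes, 25.7% were called for construct 1 and 41.3% for construct 2 against control RNAi. The share was 29.6% with dpp overexpression, 12% between the constructs and 45.2% between control RNAi and control. Against control it was 24.6% with construct 1 and 36.2% with construct 2. Counts of this and the following gene lists are to be read beside these shares.

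Of the genes that regulate the corpus allatum or act in it, Cyp6g2, a cytochrome P450 gene linked to hormone synthesis in the corpus allatum, was 3.35-fold higher with dpp overexpression, at 2.84 ± 0.58 CPM against 0.865 ± 0.047 CPM in control (SD, n = 3; 1.74 ± 0.18, SE; adjusted p = 1.89e-06). jhamt, which is expressed in the same gland, was lower in that comparison. The other 5 tested genes of that list were not called there. AstC (Ast-C in the files) encodes a peptide that inhibits hormone synthesis in other insects. It was higher than in control in control RNAi (0.70, adjusted p = 5.73e-05), with construct 1 (0.60, adjusted p = 0.000624) and with construct 2 (0.42, adjusted p = 0.00433). The receptor gene AstA-R1 (AlstR) was at 28.6 ± 0.51 CPM in control RNAi and 17.5 ± 0.43 in control (0.71 ± 0.06, adjusted p = 2.31e-07), and lower than in control RNAi with construct 1 (-0.65) and construct 2 (-0.60). AstC-R1 (star1) was lower than in control RNAi with both constructs (-0.30 and -0.52) and higher in control RNAi than in control (0.30). AstC-R2 (AlCR2) was lower with construct 2 than in control RNAi (-0.37) and higher with construct 1 than with construct 2 (0.36) or in control (0.31). In counts, 2 of 6 were lower with construct 1 and 4 of 6 with construct 2 against control RNAi (medians -0.23 and -0.32). There 12.6% and 20.3% of all tested genes were called lower. In control RNAi 4 of 6 were higher than in control (median 0.41), where 20.9% of all tested genes were called higher. AstA had no unique match in the files and was not used here.

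Of the partners of the receptor, tai, which encodes the coactivator Taiman that pairs with Met and gce, was at 162 ± 6.1 CPM in control RNAi, 158 ± 2.6 with construct 1 and 167 ± 6.1 with construct 2, against 110 ± 3.4 CPM in control. It was higher than in control in all 3 (0.56, 0.52 and 0.60, adjusted p = 2.13e-07, 8.77e-07 and 1.44e-07), comparisons that share the control libraries. With dpp overexpression 1 of 6 was lower, FK506-bp1 (-0.18 ± 0.07, adjusted p = 0.0489), and 5 were not called, with a median of 0.05. With construct 1 against control RNAi none of 6 was called by edgeR, 2 had an unadjusted p under 0.05, and DESeq2 called 1. With construct 2, usp, the RXR homolog, was higher (0.14) and Chd64 lower (-0.35). Between the constructs none was called by edgeR or DESeq2, and 0 had an unadjusted p under 0.05. Nup358 was lower in control RNAi than in control (-0.25), and the chaperone gene Hsp83 was lower than in control with construct 1 (-0.68) and construct 2 (-0.59).

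With dpp overexpression, 13.4% of all tested genes were called higher than in control. Of 7 genes reported to respond to the hormone, 2 were higher there and 5 were not called (median 0.22). Those were the yolk protein gene Yp3 (30.3 ± 3.88 against 20.8 ± 1.44 CPM; 0.55 ± 0.12, adjusted p = 0.00222) and JhI-1 (0.22 ± 0.08, adjusted p = 0.0415). Yp3 was lower than in control RNAi with construct 1 (-0.54, adjusted p = 0.00657) and construct 2 (-0.68, adjusted p = 0.000688), and higher in control RNAi than in control (0.38). JhI-26, a gene first found as induced by the hormone, was at 56.5 ± 2.8 CPM with construct 2, above 41.6 ± 2.4 with construct 1, 40.5 ± 1.7 in control RNAi and 46.2 ± 0.85 in control. It was higher with construct 2 than in control RNAi (0.48, adjusted p = 0.000153) and control (0.29, adjusted p = 0.007), lower with construct 1 than with construct 2 (-0.44, adjusted p = 0.00232), and lower in control RNAi than in control (-0.19). br, a transcription factor gene of metamorphosis, was higher than in control in control RNAi (0.46), with construct 1 (0.44) and with construct 2 (0.27). The list medians were 0.04 and -0.19 for the constructs against control RNAi.

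Other carboxylesterases were examined because Jhe and Jhedup belong to that family, and 12 of 13 were tested. With dpp overexpression 3 were higher and 4 lower, led by alpha-Est10 (28.6 ± 4.7 against 63.6 ± 4.5 CPM; -1.15 ± 0.09, adjusted p = 1.39e-07), alpha-Est8 (-0.65) and alpha-Est2 (-0.51). With construct 1 against control RNAi 1 was higher (alpha-Est9, 0.30) and 2 lower (alpha-Est10, -0.32, and alpha-Est5, -0.40). With construct 2, 5 were higher and 7 not called, led by alpha-Est1 (0.70), alpha-Est9 (0.41) and alpha-Est5 (0.50). Between the constructs 3 were lower with construct 1, namely alpha-Est5 (-0.90), alpha-Est1 (-0.47) and alpha-Est10 (-0.32). In control RNAi 3 were higher and 4 lower than in control, led by alpha-Est1 (-0.60), Est-P (1.10) and alpha-Est2 (0.50). Against control, construct 1 had 2 higher and 4 lower, led by alpha-Est2 (0.51), Est-P (1.00) and alpha-Est1 (-0.37), and construct 2 had 5 higher, led by alpha-Est2 (0.73), alpha-Est5 (0.44) and Est-P (0.75). The list median was -0.03 with dpp overexpression, -0.11 and 0.15 for construct 1 and construct 2 against control RNAi, -0.22 between the constructs and -0.02 between control RNAi and control. Of all tested genes, 13.4% were called higher and 16.2% lower with dpp overexpression, and 21% higher with construct 2 against control RNAi. Sequence likeness among the carboxylesterases, and reads that could match more than 1 of them, were not examined.

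Across the 15 libraries, the 2 tested genes most like each member, by Pearson correlation of log2 CPM, were named as a description. The libraries form 5 groups, so that group differences weigh in each value. For Jhedup they were CG11391 (r = 0.995) and Pbprp3 (0.992), the older symbol of the antennal gene Obp83a. For Jheh1 they were CG6908 (0.987) and CG10126 (0.982), for Jheh2 CG4847 (0.982) and CG6206 (0.978), and for Jheh3 CG11407 (0.960) and CG30427 (0.941). For jhamt they were CG14394 (0.968) and CG14661 (0.961), and for Jhe nod (0.950) and CG5114 (0.945). For Met they were CG1969 (0.886) and Capr (0.884), for gce CG12025 (0.955) and Teh2 (0.955), and for Kr-h1 CG3288 (0.934) and CG6763 (0.924). Among the members themselves, the highest correlation was between Jhedup and Jheh1 (0.889), and the lowest between Jheh1 and Kr-h1 (-0.79).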

How the data were processed

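The authors deposited 1 file per library with raw counts per gene symbol, followed by 5 summary lines that name no gene and held 14.5 to 20.9% of all entries. The submitters' processing notes name dm3 as the build, with BWA, STAR and HTSeq as tools. Versions, annotation and strand setting are not given in the sources used here. Libraries were grouped by sample title. The filterByExpr function (minimum count 10) kept 10668 genes. edgeR 4.0.16 in R 4.3.3 fitted TMM-scaled counts of all 15 libraries together by robust quasi-likelihood, with 10 residual degrees of freedom, and a call was an adjusted p under 0.05 (Benjamini-Hochberg, all tested genes). The procedure was run on simulated data with few changed genes, a setting unlike the comparisons in which much of the transcriptome differed. log2 CPM used a prior count of 2. Alternatives were RLE size factors, no TMM factors, no filter, only the groups compared, DESeq2 1.42.0, a replicate block and leaving out each library. The members and gene lists were chosen with earlier results of these data known. Named were the 9 members, the 2 genes most correlated with each, and up to 3 called genes per list and comparison. A gene that this rule would name is not reported here. In the dm6 annotation, used only for names, order and lengths, antisense RNAs overlap the Jheh genes and gce, and their reads cannot be told apart if strand was not used in counting. CG45075 lies on the strand of Kr-h1 and cannot be told apart from it in the shared exons. None of these overlapping genes is an entry of the files. Python 3.11.15, pandas 2.3.3 and matplotlib 3.10.9 read the files and drew the plots.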

Additional observations from a re-analysis of the deposited data

Results flagged for a closer look

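The effects of the 2 dpp RNAi constructs against control RNAi differed for 4 of the 9 genes by the test of the difference itself (edgeR, construct 1 minus construct 2, adjusted over all genes), where 12% of all tested genes were called. The differences were -1.85 for Jhedup, -0.34 for Jheh1, -0.35 for Jheh2 and 0.52 for Kr-h1. In each of the 4, the 3 libraries of construct 1 did not overlap with those of construct 2, which held for 31.5% of all tested genes. The Jhedup call was lost in 5 of the 6 fits without 1 library (adjusted p = 0.0526 to 0.133 in those 5), without the filter on low counts (adjusted p = 0.0524) and with only these groups fitted (adjusted p = 0.179). The Jheh2 call was lost in 2 of the 6 fits without 1 library (adjusted p = 0.061 and 0.0614). Of 9 antennal markers 3 were lower in construct 1 by edgeR and 6 were called by DESeq2, all 9 had an unadjusted p under 0.05, and the median log2 difference was -1.25. Their sums were 92.9 to 436 CPM in construct 1 and 514 to 960 CPM in construct 2. Of 5 glial markers 3 were lower in construct 1. The part of these markers in the differences was not tested.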

How the results depend on the processing

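Most member values kept direction and side of the threshold. Among member values from fits without 1 library, 331 did so, 36 lost a call, 2 gained one and 9 changed sign. Without the filter on low counts, 3 members were called for construct 2 against control RNAi (5 with it). Without 1 library each, that count was 3 to 4, the genes called between the constructs numbered 619 to 1243 (1283 with all libraries) and the members 2 to 4, and construct 2 against control called 4 to 7 members. Signs changed for values that were not called. For construct 1 against control RNAi, jhamt ranged from -0.35 to 0.31 without 1 library, and Jhe for construct 2 from -0.36 to 0.087. Met with dpp overexpression was 0.0028 with only the groups compared, and -0.036 to 0.011 without 1 library. Jheh2 between control RNAi and control was 0.011 with RLE factors and in DESeq2, 0.012 with only the groups compared, and -0.048 to 0.010 without 1 library. Jhedup for construct 1 against control ranged from -0.58 to 0.40. Without TMM factors, Met between control RNAi and control was -0.075, and gce against control was -0.011 for construct 1 and -0.065 for construct 2. The cause of these changes was not tested. Same-numbered libraries correlated at -0.11 to 0.25 in their deviations from group means, and in no comparison all above 0.1. For construct 2 against control the values were 0.25, 0.08 and 0.13, and 5 of 6 libraries correlated best with their own number. Whether same-numbered libraries were prepared together is not given, and these correlations cannot decide it. With the replicate block, construct 2 against control RNAi called 6 members instead of 5 (Jheh1, -0.13, adjusted p = 0.0367), control RNAi against control 6 instead of 5 (Kr-h1, adjusted p = 0.0359), and the other 5 comparisons as many as without it. Between 1 and 5 of 6 libraries in a comparison correlated best with their own number. A count of 3 corresponds to 0.0533 to 0.267 CPM, below all members' levels.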
